A study of Mus musculus with 4 samples.

Results

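The 10 genes described here encode enzymes and core subunits of the Polycomb and DNA methylation machinery: Ezh1, Ezh2, Eed, Suz12, Bmi1, Kdm6b, Dnmt1, Dnmt3a, Tet2 and Tet3. They were chosen by gene symbol from the 55401 genes of the count table, all 10 were found there, and all 10 passed the filter on low counts. Messenger RNA was sequenced from P14 CD8+ T cells of the mouse spleen, whose transgenic receptor recognises lymphocytic choriomeningitis virus (LCMV). They had been given either a Hic1 overexpression vector, Hic1 being a zinc finger repressor of transcription (Hic1 vector, n = 2 libraries), or the same kind of vector without an insert (empty vector, n = 2 libraries), and all came from LCMV-Armstrong infection. The sample labels put the cells at day 32 after infection and the series text puts them at day 7, so both are given. The labels give neither the age nor the strain of the mice, nor whether each replicate is a different mouse. Sex-linked transcripts, given below, differ between the replicates of each group. The p-values measure the spread between these libraries.

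Polycomb repressive complex 2 methylates lysine K27 of histone H3, a mark of silenced genes. Ezh2 or its paralog Ezh1 is the catalytic subunit, Suz12 is the scaffold, and Eed binds the finished mark and stimulates the enzyme. Bmi1 belongs to Polycomb repressive complex 1, which ubiquitinates histone H2A, and Kdm6b removes methyl groups from H3K27. Dnmt1 copies DNA methylation after replication, Dnmt3a places it de novo, and Tet2 and Tet3 oxidise methylcytosine on the way to its removal. In CD8+ T cells these enzymes are known for silencing memory-associated genes during effector differentiation and for keeping effector and memory states stable.

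Total gene counts were 7501285 and 8839317 in the Hic1 vector libraries and 4017346 and 3941364 in the empty vector libraries, so the libraries of the 2 groups were sequenced to different depths. Levels are given as CPM, read counts relative to the TMM-scaled total of their library. Hic1 itself had 314 and 161 counts in the Hic1 vector libraries and 3 and 5 in the empty vector libraries. In both groups the library numbered 1 had Xist (1885 or more counts) and no Eif2s3y count, and the library numbered 2 had Eif2s3y (396 or more) and at most 3 Xist counts. Sex therefore goes with the replicate number, so the 2 libraries of a group hold cells of different mice. The labels do not say whether same-numbered libraries share a mouse. The main fit has no term for sex, so its SE includes this difference. For this reason log2 differences taken within each number are given beside the members. CD8 T cell markers were present in every library (Cd8b1 at 1680 and 1770 CPM with the Hic1 vector, 1760 and 1670 CPM with the empty vector).

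Of the 10 members Ezh2 passed the test and fell, and the other 9 did not pass. Ezh2, the catalytic subunit of Polycomb repressive complex 2 most associated with dividing cells, had 438 and 450 counts in the Hic1 vector libraries and 628 and 421 counts in the empty vector libraries, although the Hic1 vector libraries were the deeper ones. Scaled for depth this was 61.7 and 51.3 CPM with the Hic1 vector and 152 and 105 CPM with the empty vector. Both Hic1 vector libraries lay below both empty vector libraries, and the spread was wider among the empty vector libraries (56.5 ± 7.35 CPM with the Hic1 vector, 129 ± 33.4 CPM with the empty vector; SD, n = 2 each). The log2 fold change, Hic1 vector over empty vector, was -1.19 ± 0.20 (SE; 95% interval -1.63 to -0.75), or 2.28-fold lower. The adjusted p was 0.021 (edgeR, quasi-likelihood F test, adjusted over every gene tested), and Ezh2 ranked 50 by p among the 11676 genes tested. The log2 difference was -1.31 within replicate number 1 and -1.04 within number 2. When empty vector replicate 1 was left out, the value for Ezh2 was -0.89 and the call was lost (adjusted p = 0.176 by the same edgeR test). In bulk RNA, fewer cells that express a gene and less of its RNA per cell cannot be told apart.

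One call among 10 members, in the downward direction, stands beside 1.82% of all genes called in either direction, 1.1% called lower and 0.719% called higher. The other 9 members had log2 fold changes from -0.28 to 0.26, and their lowest adjusted p was 0.507 in the same test. The CPM values of 8 members overlapped between the groups, 1 (Ezh2) was lower and 1 (Tet3) was higher in both Hic1 vector libraries. Over all genes tested, 24.9% were lower and 26.5% higher in both Hic1 vector libraries. The median log2 fold change was -0.06 over the members and 0.009 over all genes tested.

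**Figure D1:**
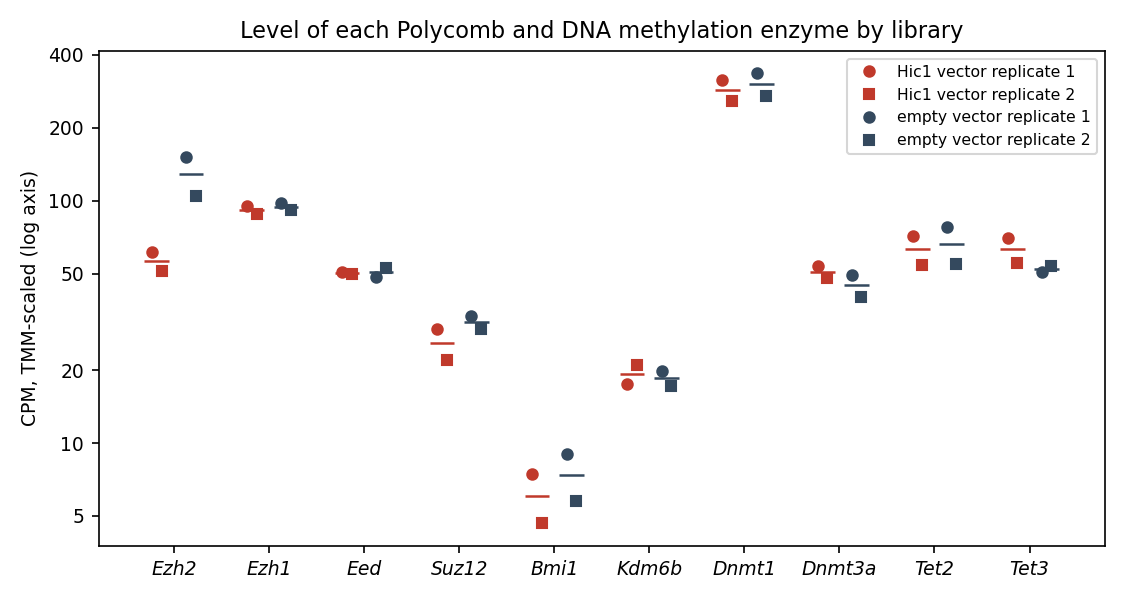
CPM of each member in each library on a log axis, Hic1 vector in red and empty vector in dark blue, circles for replicate 1, squares for replicate 2 and bars for group means. Ezh2 is the member whose Hic1 vector libraries (61.7 and 51.3 CPM) sit well below its empty vector libraries (152 and 105 CPM).

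**Figure D2:**
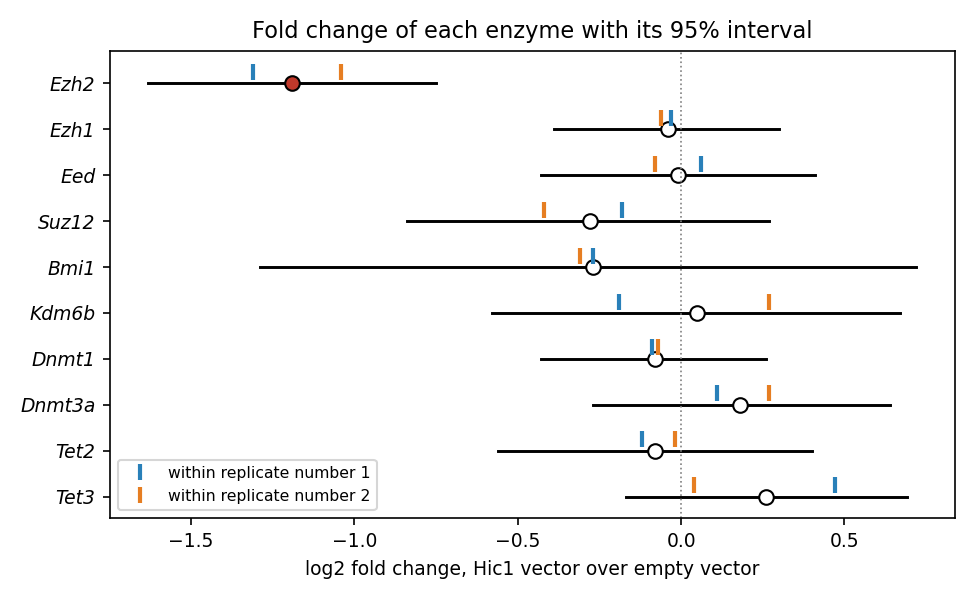
Log2 fold change of each member, Hic1 vector over empty vector, as a point with its 95% interval (red, adjusted p below 0.05) and the differences within each replicate number as ticks. The interval of Ezh2 runs from -1.63 to -0.75 and the intervals of the other 9 members include 0.

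The paralog Ezh1, the catalytic subunit that resting cells also express, did not pass. Ezh1 was at 95.5 and 88.0 CPM with the Hic1 vector and 97.6 and 91.4 CPM with the empty vector, and the 2 groups overlapped. Its log2 fold change was -0.04 ± 0.16 (SE; 95% interval -0.39 to 0.30), and this interval does not reach the value of Ezh2. Ezh2 (chromosome 6, positions 47530139 to 47595341, minus strand, mm10) and Ezh1 (chromosome 11, positions 101191115 to 101226463, minus strand) are separate loci, and no transcript of another gene matched either of them over 200 bases at 90% identity.

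The balance between the catalytic subunits was also compared within each library, where no scaling between libraries is needed. The ratio of Ezh2 to Ezh1 counts was 0.646 and 0.583 in the Hic1 vector libraries and 1.56 and 1.15 in the empty vector libraries, so Ezh2 had fewer counts than Ezh1 in both Hic1 vector libraries and more in both empty vector libraries. The log2 ratio was -0.70 ± 0.10 with the Hic1 vector and 0.42 ± 0.31 with the empty vector (SD, n = 2 each), a difference of -1.13. Within replicate number 1 the difference was -1.27 and within number 2 it was -0.98. An exact two-sided permutation test gave p = 0.333, the smallest value that 2 libraries against 2 allow, so this design cannot pass 0.05. Per kilobase of merged exons the ratio was 0.72 and 0.649 with the Hic1 vector and 1.74 and 1.28 with the empty vector. With the length of the longest transcript, a choice made after the data were seen, it was 0.975 and 0.88 with the Hic1 vector and 2.36 and 1.74 with the empty vector.

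The non-catalytic subunits of Polycomb repressive complex 2 did not pass. Eed was at 50.7 and 49.9 CPM with the Hic1 vector and 48.5 and 52.7 CPM with the empty vector (log2 fold change -0.01 ± 0.19, SE; 95% interval -0.43 to 0.41). The Hic1 vector values of Eed lay inside the range of the empty vector values. Suz12 (chromosome 11, positions 79993106 to 80034123) was at 29.7 and 22.1 CPM with the Hic1 vector and 33.5 and 29.5 CPM with the empty vector, and replicate 1 of the Hic1 vector lay between the empty vector libraries. Its log2 fold change was -0.28 ± 0.25 (95% interval -0.84 to 0.27), with -0.18 and -0.42 within replicate numbers 1 and 2.

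Bmi1, the member with the fewest counts, had 53 and 41 counts in the Hic1 vector libraries and 37 and 23 in the empty vector libraries. That is 7.46 and 4.67 CPM with the Hic1 vector and 8.98 and 5.75 CPM with the empty vector, with overlap between the groups and the higher value in replicate 1 of each. The 95% interval of its log2 fold change, -1.29 to 0.72, was the widest of the members. It includes the value of Ezh2, so a difference of that size in Bmi1 is not excluded. Kdm6b, which counteracts Polycomb repressive complex 2, was at 17.5 and 20.9 CPM with the Hic1 vector and 19.9 and 17.2 CPM with the empty vector (0.05 ± 0.29, log2, SE). The difference of Kdm6b was -0.19 within replicate number 1 and 0.27 within number 2, so its sign was not the same in both. With Ezh2 lower, the ratio of Kdm6b to Ezh2 counts was 0.283 and 0.407 in the Hic1 vector libraries and 0.131 and 0.164 in the empty vector libraries.

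The DNA methyltransferases did not pass. Dnmt1 (chromosome 9, positions 20907209 to 20959888), the maintenance enzyme, was at 316 and 258 CPM with the Hic1 vector and 336 and 271 CPM with the empty vector. Replicate 1 was the higher library in both groups, by 0.29 with the Hic1 vector and 0.31 with the empty vector on the log2 scale, and the log2 fold change between the groups was -0.08 ± 0.16 (SE; 95% interval -0.43 to 0.26). Dnmt3a (chromosome 12, positions 3806007 to 3914443), the de novo enzyme, was at 53.6 and 48.2 CPM with the Hic1 vector and 49.5 and 40.0 CPM with the empty vector, with overlap. The log2 fold change of Dnmt3a was 0.18 ± 0.21 (95% interval -0.27 to 0.64). The ratio of Dnmt3a to Dnmt1 counts was 0.17 and 0.187 in the Hic1 vector libraries and 0.148 and 0.147 in the empty vector libraries, a log2 difference of 0.27.

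The dioxygenases Tet2 and Tet3 did not pass either. Tet2 (chromosome 3, positions 133463679 to 133545139) was at 71.7 and 54.2 CPM with the Hic1 vector and 77.9 and 55.0 CPM with the empty vector (-0.08 ± 0.22, log2, SE; 95% interval -0.56 to 0.40). Its libraries were set apart by replicate number more than by vector. Tet3 (chromosome 6, positions 83362373 to 83459084) was at 70.5 and 55.5 CPM with the Hic1 vector and 51.0 and 54.0 CPM with the empty vector, and the lower Hic1 vector library lay just above the higher empty vector library. The log2 fold change of Tet3 was 0.26 ± 0.20 (95% interval -0.17 to 0.69), with 0.47 within replicate number 1 and 0.04 within number 2. The ratio of Tet3 to Tet2 counts was 0.984 and 1.02 in the Hic1 vector libraries and 0.654 and 0.982 in the empty vector libraries. Of the 4 ratios computed between members, none overlapped between the groups. For Tet3 to Tet2 the groups were separated only by 0.984 against 0.982. The ratios of Ezh2 to Ezh1 and of Kdm6b to Ezh2 share Ezh2. How often other gene pairs do not overlap was not computed. Among single genes tested, 24.9% were lower and 26.5% higher in both Hic1 vector libraries. Each ratio gave the same exact permutation p of 0.333, which adjustment over the 4 leaves as it is.

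**Figure D3:**
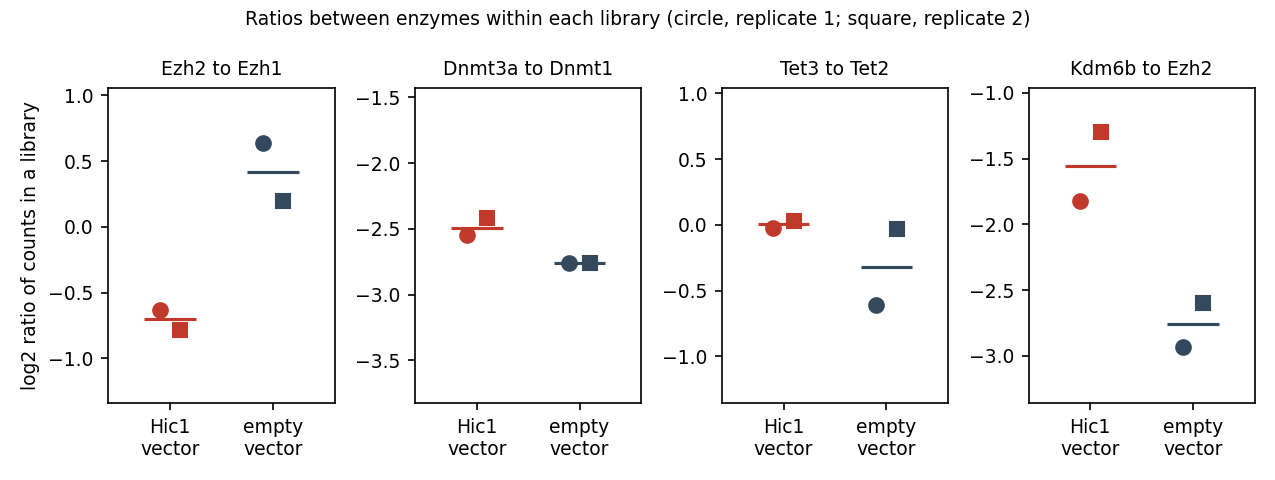
Log2 ratio of the counts of 2 members within each library (circles, replicate 1; squares, replicate 2; bars, group means), Hic1 vector left of empty vector in each panel, each panel spanning the same range. The ratio of Ezh2 to Ezh1 averages -0.70 with the Hic1 vector and 0.42 with the empty vector, and the ratio of Kdm6b to Ezh2 averages -1.56 with the Hic1 vector and -2.76 with the empty vector.

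Between genes, levels are compared per kilobase of merged exons. In the Hic1 vector libraries Dnmt1 was the most abundant member (38.8 ± 5.59 CPM per kilobase, SD, n = 2), followed by Eed (13.1 ± 0.141), Ezh1 (12.3 ± 0.707) and Ezh2 (8.46 ± 1.1). In the empty vector libraries Dnmt1 (41.1 ± 6.22 CPM per kilobase) was followed by Ezh2 (19.3 ± 4.95), Eed (13.2 ± 0.778) and Ezh1 (12.7 ± 0.566). Ezh2 thus stood below Eed and Ezh1 with the Hic1 vector and above both with the empty vector, while the places of Dnmt1, Eed and Ezh1 relative to each other were the same. Suz12 came next in both groups (5.24 ± 1.09 CPM per kilobase with the Hic1 vector, 6.37 ± 0.573 with the empty vector). With the Hic1 vector, each of Tet3, Tet2, Dnmt3a and Kdm6b overlapped its neighbour, at 2.75 to 3.77 CPM per kilobase on average. With the empty vector, Eed and Ezh1 overlapped, as did Dnmt3a and Kdm6b. Bmi1 was the lowest in both groups, at 1.53 ± 0.495 CPM per kilobase with the Hic1 vector and 1.85 ± 0.573 with the empty vector. With the longest transcript as the length, the ranges of Ezh1 and Ezh2 overlapped with the Hic1 vector, and those of Dnmt1 and Ezh2 with the empty vector.

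Within a group, 7 of the 10 members were higher in replicate 1 than in replicate 2 with both vectors, Ezh2, Dnmt1, Tet2 and Bmi1 among them. The summed level of all members was 774 and 653 CPM in the Hic1 vector libraries and 875 and 722 CPM in the empty vector libraries. The X-linked H3K27 demethylase Kdm6a, which is known to escape X inactivation, was at 63.9 and 29.5 CPM with the Hic1 vector and 94.9 and 43.2 CPM with the empty vector. Its Y-linked counterpart Uty had 0 and 213 counts with the Hic1 vector and 0 and 163 with the empty vector. Kdm6a did not pass (-0.57 ± 0.49, log2, SE), and its differences within the replicate numbers were -0.57 and -0.55. Its replicates differed by 1.11 with the Hic1 vector and 1.13 with the empty vector on the log2 scale, about the same in each group.

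The other genes of these pathways came from lists of known complex members, readers and cofactors. In 10 such lists, 94 of 103 genes passed the filter and none of the 94 passed the edgeR test at an adjusted p below 0.05, nor did any by DESeq2 or limma voom. Of these, 42 had a log2 fold change above 0 and 52 below 0, against 50.9% above 0 over all genes tested. At an unadjusted p below 0.05 there were 10, which is 10.6%, against 19.1% of all genes tested. The remaining partners of Polycomb repressive complex 2 included Lcor (34.4 and 27.6 CPM with the Hic1 vector, 61.2 and 36.7 CPM with the empty vector) and Mtf2, which recruits the complex to CpG islands (47.4 and 53.7 CPM with the Hic1 vector, 62.1 and 74.0 CPM with the empty vector). Lcor had a log2 fold change of -0.66 ± 0.27 and Mtf2 one of -0.43 ± 0.19 (SE). The histone chaperone Rbbp4 had -0.39 ± 0.19. In 9 tested partners of this complex, 5 values were above 0 and 4 below, with a median of 0.05.

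Among 20 tested genes of Polycomb repressive complex 1, 10 were above 0 and 10 below, with a median of -0.025 (log2). Cbx8, which reads the H3K27 mark, had 95 and 158 counts with the Hic1 vector and 25 and 38 counts with the empty vector (log2 fold change 0.99 ± 0.37, adjusted p = 0.164 by edgeR's quasi-likelihood test). Phc2, a polymerising subunit, had a log2 fold change of 1.07 ± 0.46 and Pcgf1 one of 0.54 ± 0.29. For the 9 tested genes of the H3K27 demethylases and the H2A deubiquitinase complex, the median was -0.3. Bap1, the H2A deubiquitinase, had 0.38 ± 0.18, Foxk2 0.69 ± 0.40 and Foxk1 -0.48 ± 0.25, all log2 fold changes with SE.

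Of 6 tested partners of DNA methylation, 5 were below 0 and 1 above (median -0.075, log2). Hells, a remodelling ATPase needed for DNA methylation, was at 25.6 and 27.7 CPM with the Hic1 vector and 44.4 and 37.0 CPM with the empty vector. Its activator Cdca7 was at 23.1 and 29.2 CPM with the Hic1 vector and 34.5 and 41.5 CPM with the empty vector. Neither passed (adjusted p = 0.178 for Hells and 0.252 for Cdca7 by the same edgeR test). For each gene both Hic1 vector libraries lay below both empty vector libraries, as they did for 24.9% of all genes tested. Uhrf1, which brings Dnmt1 to hemimethylated DNA, had a log2 fold change of -0.04 ± 0.18, and Dnmt3b, the other de novo enzyme, was at 11.7 and 10.8 CPM with the Hic1 vector and 15.5 and 8.74 CPM with the empty vector. Among 7 tested genes of DNA demethylation the median was 0.05 and Tet1 was at 13.8 and 3.42 CPM with the Hic1 vector and 4.85 and 4.25 CPM with the empty vector, so its higher mean came from 1 library. Ogt, a glycosyltransferase that binds Tet proteins, had -0.21 ± 0.13 and D2hgdh 0.44 ± 0.33.

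Of 8 tested methyl-CpG readers and related proteins, 6 were below 0 (median -0.06). The related protein Mbd3 was at 17.7 and 19.8 CPM with the Hic1 vector and 10.9 and 8.74 CPM with the empty vector (0.91 ± 0.32, adjusted p = 0.142 by the same edgeR test). Zbtb33 had a log2 fold change of -0.79 ± 0.41 and Mbd4, a DNA glycosylase, one of -0.48 ± 0.32. Among 6 genes of the methyl donor cycle the median was 0.095, with Ahcy at 0.43 ± 0.23 and Mat2b at 0.17 ± 0.15. The 15 genes listed for H3K4 methylation and the trithorax group had a median of 0.1. Among them Ash1l was at -0.54 ± 0.18, Men1 at 0.40 ± 0.18 and Dpy30 at -0.42 ± 0.19. The 10 H3K9 enzymes and heterochromatin proteins had a median of -0.11, with Ehmt2, an H3K9 methyltransferase, at 0.64 ± 0.20 (called when empty vector replicate 2 was left out), Setdb1 at -0.37 ± 0.19 and the sparsely counted Suv39h2 at -1.48 ± 1.10. All 4 genes of the separate H3K36 methyltransferase list were below 0 (median -0.335), and none passed. They were Nsd2 at -0.50 ± 0.23, Nsd1 at -0.34 ± 0.15, Setd2 at -0.33 ± 0.19 and Nsd3 at -0.30 ± 0.15.

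**Figure D4:**
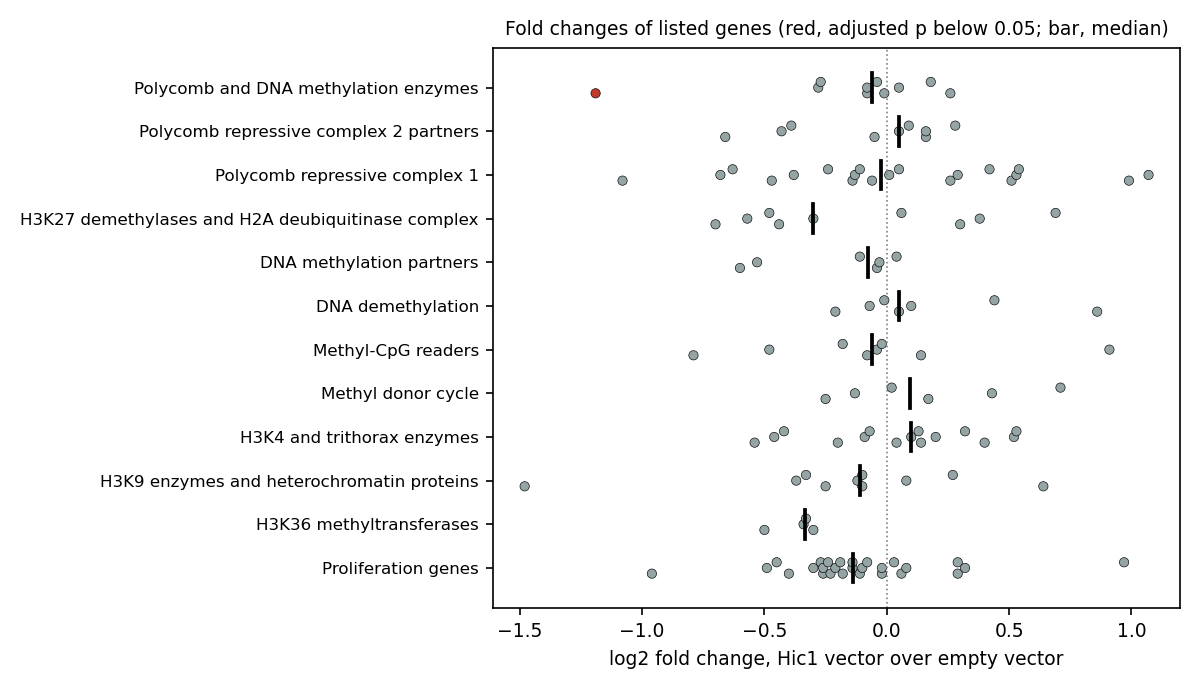
Log2 fold change, Hic1 vector over empty vector, of every tested gene of the members, the 10 pathway lists and the proliferation list (red, adjusted p below 0.05; black bars, list medians). Ezh2 at -1.19 is the red point, and the list medians lie between -0.335 and 0.1.

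Ezh2 is known to follow the cell cycle, so proliferation genes are given beside it. None of 27 proliferation genes passed the edgeR test (3 had an unadjusted p below 0.05) or was called by DESeq2 or limma voom, 20 were below 0 and 7 above, and their median log2 fold change was -0.14. The log2 fold changes of all 27 were above that of Ezh2, the lowest being that of Top2a, a topoisomerase of dividing cells, at -0.96 ± 0.41 (430 and 233 CPM with the Hic1 vector, 816 and 473 CPM with the empty vector). Between same-numbered libraries Top2a differed by -0.92 for number 1 and -1.02 for number 2 (log2). Tyms and Rrm2, enzymes of nucleotide synthesis, had -0.49 ± 0.18 and -0.45 ± 0.17, and E2f1, a transcription factor of the S phase, 0.97 ± 0.41. Rrm2 was called when Hic1 vector replicate 1 was left out, and some fits described with the alternatives called Top2a or Rrm2, both lower. The summed level of the proliferation genes was 4910 and 3460 CPM in the Hic1 vector libraries and 5330 and 4530 CPM with the empty vector. Its part in the fall of Ezh2 was not tested. The summed level of 6 B cell markers was 41.9 and 16.4 CPM with the Hic1 vector and 18.2 and 4.75 CPM with the empty vector, mostly Cd79b, and their part was not tested. The defining B cell markers Ms4a1 and Pax5 had 0 and 0 counts in Hic1 vector replicate 1 and at most 5 counts in any library. Of 7 myeloid markers the summed level was 15.9 and 24.3 CPM with the Hic1 vector and 36.9 and 37.0 CPM with the empty vector, mostly Itgam, which effector CD8+ T cells can also express, and their part was not tested. The macrophage marker Adgre1 had 0 counts in both Hic1 vector libraries and 6 and 10 in the empty vector libraries. Lyz2 went the other way, with 0 and 13 counts with the Hic1 vector and 0 and 0 with the empty vector. Csf1r had 1 and 37 counts with the Hic1 vector and 7 and 21 with the empty vector. Of 3 NK cell markers Klrb1c made up most of the summed level, at 58.6 and 70.8 CPM with the Hic1 vector and 29.4 and 43.7 CPM with the empty vector (log2 fold change 0.82 ± 0.23, not passing, adjusted p = 0.0885 by edgeR), while Ncr1 had at most 2 counts in any library. Of 3 CD4 T cell markers the transcription factor Zbtb7b was at 18.2 and 18.6 CPM with the Hic1 vector and 9.95 and 14.0 CPM with the empty vector (0.61 ± 0.32, not passing), while Cd4 had at most 5 counts. The dendritic cell markers summed to 640 and 534 CPM with the Hic1 vector and 489 and 513 CPM with the empty vector, mostly Itgax. Xcr1 was at 20.4 and 15.8 CPM with the Hic1 vector and 11.9 and 12.5 CPM with the empty vector. Flt3 had at most 5 counts and Siglech at most 1 in any library. The erythroid markers summed to at most 1.7 CPM in any library. The part of these markers in the fall of Ezh2 was not tested. The platelet markers had no counts.

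Genes known as targets of Polycomb or DNA methylation in CD8+ T cells were also listed. Their values are RNA levels, and whether they are linked to the fall of Ezh2 was not tested. Of 13 tested, Tcf7, a transcription factor of memory and stem-like T cells, rose (97.8 and 84.0 CPM with the Hic1 vector, 25.5 and 20 CPM with the empty vector, log2 fold change 1.98 ± 0.21, adjusted p = 0.00423 by the edgeR test), none fell and 12 did not pass. The median of the 13 was 0.17 (log2). Il7r, the interleukin 7 receptor chain, was at 184 and 82.8 CPM with the Hic1 vector and 46.1 and 35.0 CPM with the empty vector (log2 fold change 1.71 ± 0.40, adjusted p = 0.0966 by the edgeR test). Between same-numbered libraries Il7r differed by 2.00 for number 1 and 1.24 for number 2 (log2), and it was called, higher, in 7 of 16 alternatives, leaving out either Hic1 vector library among them. Eomes, a T-box factor, had -1.04 ± 0.37 and did not pass. Of 15 classical Polycomb targets only Cdkn1a was counted enough to be tested (-0.39 ± 0.44, log2). Cdkn2a, the textbook Polycomb target, had 1 and 6 counts with the Hic1 vector and 2 and 1 with the empty vector, and 3 of the 15 had no count in any library. Of 9 germline genes that DNA methylation keeps silent in somatic cells none was counted enough to be tested and 5 had no count. The other germline genes had at most 4 counts in any library of either group.

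The promoter of Ezh2, the member that fell, is shown with those of its paralog Ezh1 and of Tet3, the member with both Hic1 vector libraries above the empty vector libraries. Each line is the 250 bases before the RefSeq transcription start (GRCm38.p6), read 5′ to 3′ on the gene's own strand. The letters GGGCA or their reverse complement TGCCC are in capitals. Hic1 sites hold a GGCA core, and GGGCA is a longer word with that core. The core GGCA alone is not marked, and it stands in the Ezh2 and Ezh1 windows as well. For Ezh2 and Tet3, GENCODE M21 places the outer end of the gene further upstream than this start.
Ezh2 (chr6:47595031-47595280, minus strand): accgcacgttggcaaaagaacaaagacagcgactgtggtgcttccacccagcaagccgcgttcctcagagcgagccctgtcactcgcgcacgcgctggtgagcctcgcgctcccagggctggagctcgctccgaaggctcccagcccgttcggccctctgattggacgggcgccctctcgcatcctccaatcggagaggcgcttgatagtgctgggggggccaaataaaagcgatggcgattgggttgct
Ezh1 (chr11:101226464-101226713, minus strand): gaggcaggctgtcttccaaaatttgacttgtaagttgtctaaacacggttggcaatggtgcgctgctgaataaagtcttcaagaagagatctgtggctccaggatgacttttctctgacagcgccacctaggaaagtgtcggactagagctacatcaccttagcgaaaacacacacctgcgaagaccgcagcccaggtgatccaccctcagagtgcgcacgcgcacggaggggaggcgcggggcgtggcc
Tet3 (chr6:83441679-83441928, minus strand): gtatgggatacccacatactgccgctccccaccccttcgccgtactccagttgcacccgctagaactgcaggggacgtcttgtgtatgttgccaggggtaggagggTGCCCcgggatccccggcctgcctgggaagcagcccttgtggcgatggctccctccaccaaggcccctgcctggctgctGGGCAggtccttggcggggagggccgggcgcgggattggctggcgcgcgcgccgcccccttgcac

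The letters GGGCA were in neither the Ezh2 nor the Ezh1 window, which does not mean that these windows lack the shorter core GGCA. In the Tet3 window GGGCA occurred at 2 places, 144 and 65 bases before the start. These letters occurred on either strand in the 250-base windows of 47.7% of 32851 RefSeq promoters, and of the 9 members with a window (Kdm6b had none) in those of Eed, Dnmt1 and Tet3. The 9 members had 13 windows, and a member is named where any of its windows held the word. The longer word GGGCANCC was in 4.53% of all windows and, among the members, in that of Tet3. Words bound by E2F cell cycle factors (TTTCCCGC, TTTGGCGC, TTTCGCGC and TTTGCCGC, either strand) were in 2.26% of all windows extended to 50 bases after the start, and among the members in those of Ezh2, Suz12 and Dnmt1. In the 250 bases before the start the E2F words were in 1.86% of windows, and among the members in those of Suz12 and Dnmt1. With the extended windows GGGCA was in 53.5% of all windows, and among the members also in Dnmt3a. In Ezh2 the E2F word lay 4 to 11 bases after the start, shown in capitals in its 30-base surroundings.
Ezh2 E2F word (chr6:47595009-47595038, minus strand): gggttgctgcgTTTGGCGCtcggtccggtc

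Such matches describe letters in these windows and are no evidence of binding. Of the 9 members with a window, the E2F words were thus found in the extended windows of Ezh2, which fell, and of Suz12 and Dnmt1, which did not pass. The strand setting of the counting is not stated. Exon overlaps were not searched for Eed, whose identifier version did not match the annotation. For the other members, the annotated antisense partners in the count table, Kdm6bos and Dnmt3aos among them, had at most 1 count in any library. A transcript of another gene, E230029C05Rik, matched Eed over 261 bases at 100% identity. It had 3 and 7 counts with the Hic1 vector and 2 and 4 with the empty vector. Ezh2 shares 174 exon bases (2.61%) with the opposite-strand noncoding RNA Gm26625, and Suz12 shares 178 (3.6%) with Gm26563. Neither of these RNAs is in the count table, so their part in the counts of Ezh2 and Suz12 could not be checked. A copy of Bmi1 with 97.0% identity over 2658 bases, Gm5946, had no counts, and how the counting treated reads that match both is not given in the sources used here.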

How the data were processed

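Polyadenylated RNA was made into Smart-seq2 libraries by the submitters, using 5 µl of a lysate of 1000 resorted cells and 12 PCR cycles once the cDNA was fragmented, per the labels' protocols. The deposited table holds raw read counts per gene and library. The submitters' processing notes name the genome mm10, featureCounts 1.5.3, STAR 2.5.2b, Trimmomatic 0.38 and DESeq2 1.3.2 without stating their roles. Neither the annotation release nor the strand setting is stated in the labels. A table of scaled counts was not used.

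Genes were kept by filterByExpr (minimum count 10, minimum total 15; 11676 of 55401), normalised with TMM and tested between the groups, with no other term, in edgeR 4.0.16 (quasi-likelihood F test, robust, prior count 2, R 4.3.3). A gene was called where its p, adjusted by Benjamini-Hochberg over all genes tested, was below 0.05. The SE is the unshrunken log2 coefficient over the square root of F. CPM use TMM-scaled library sizes. Ratios were taken per library with a pseudocount of 0.5. The fits were tested on simulated data. Lengths and coordinates come from GENCODE M21, where 98.1% of identifiers matched with their version. Those of Eed did not, so its length was taken by identifier without version and no coordinates are given. Similar transcripts were sought with blastn 2.17.0. The pipeline could not separate PCR duplicates, since there were no molecular identifiers.

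Members and lists were chosen with earlier results of these data known. Named are Hic1, all members and, in each list, called genes or up to 3 of lowest p, apart from a gene that is not reported here. Outside this rule are Xist, Eif2s3y, Kdm6a, Uty, Uhrf1, Top2a, Cdkn2a and the marker genes, which were named after their values were seen. Alternatives used DESeq2 1.42.0, limma 3.58.1, a loess span of 0.3 for GC trends and other settings given at the end.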

Additional observations from a re-analysis of the deposited data

How the results depend on the processing

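Over 16 alternatives for gene tests, 138 of 160 member values kept their direction and their side of the threshold. Ezh2 was called in 15 of 16, with log2 fold changes of -1.44 to -0.89, and was the member called in each of these 15. Without empty vector replicate 1 no member was called (Ezh2 adjusted p = 0.176 by edgeR's quasi-likelihood test, against 3.52e-07 to 0.176 over all alternatives), and 8 genes were called in all, 6 of them among the 213. With 1 library left out in turn, members called were 0 to 1 and genes called 8 to 318. A group left with 1 library is assumed there to vary like the other group. The count of 213 genes called was 321 with library sizes alone (21.8% of them higher, against 39.4%), 420 with DESeq2, 121 with limma voom, 140 with a non-robust fit, 819 with no filter beyond a total above 0, 117 with a GC trend removed and 460 with a GC trend removed and a replicate block. With the replicate block it was 794. The labels do not pair the libraries, and same-numbered libraries deviated together with a correlation of 0.229 over all genes tested and 0.381 over the 9412 with a mean of at least 5 CPM. With the block Ezh2 had an adjusted p of 0.00219, and of the pathway and proliferation genes Ehmt2, Rrm2 and Top2a were called (adjusted p = 0.0398 for Rrm2 and 0.00135 for Top2a by edgeR), and Top2a also with the block and a GC trend removed. Il7r (0.00191) was called with the block and in 6 other alternatives: DESeq2, the non-robust fit, no filter, the GC trend removed with the block, and without either Hic1 vector library. Tcf7 was called in all 16. Of the marker genes Klrb1c (0.0221), Cd79b (0.0204) and Cd3g (0.0483) were called higher with the block. Ehmt2 was also called with no filter and without empty vector replicate 2, and Rrm2 without Hic1 vector replicate 1. The causes of these changes were not tested. The log2 difference of the Ezh2 to Ezh1 ratio was -1.35 to -0.91 with 1 library left out, that of Kdm6b to Ezh2 0.95 to 1.47, that of Dnmt3a to Dnmt1 0.20 to 0.34 and that of Tet3 to Tet2 0.03 to 0.62, the lowest of these without empty vector replicate 1. Reads from PCR are not independent molecules, and the counts of Bmi1 limit what could be seen there.

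Of the members not called, Ezh1, Eed, Bmi1, Kdm6b, Dnmt1 and Tet2 changed sign in some alternatives. Suz12, Dnmt3a and Tet3 kept theirs in all. The values with a changed sign were all within 1 SE of 0. With 1 library left out in turn, the log2 values ran from -0.10 to 0.02 for Ezh1, -0.07 to 0.04 for Eed, -0.61 to 0.07 for Bmi1, -0.08 to 0.17 for Kdm6b, -0.24 to 0.08 for Dnmt1 and -0.32 to 0.20 for Tet2. Without Hic1 vector replicate 2 the log2 values were 0.02 for Ezh1, 0.01 for Eed, 0.02 for Bmi1, -0.08 for Kdm6b, 0.06 for Dnmt1 and 0.11 for Tet2. Without empty vector replicate 1 they were 0.01 for Ezh1, 0.07 for Bmi1, 0.08 for Dnmt1 and 0.20 for Tet2. Without empty vector replicate 2 they were 0.04 for Eed and -0.07 for Kdm6b. With no filter they were 0.02 for Ezh1 and 0.05 for Eed, and with library sizes alone -0.03 for Kdm6b. With a GC trend removed they were 0.07 for Eed, -0.15 for Kdm6b and 0.05 for Tet2, and with the replicate block added 0.07, -0.16 and 0.06.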
